A study of Mus musculus with 10 samples.

Results

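Vangl1, Vangl2, Celsr1, Celsr2, Celsr3, Prickle1, Prickle2, Scrib and Ptk7 are genes of the planar cell polarity system, and their RNA was examined in the dorsal telencephalon of mouse embryos with and without Dot1l. They were chosen by name, as 9 of the 43629 gene identifiers in the count tables, and all 9 passed the filter on low counts. Dot1l encodes a histone H3 lysine methyltransferase, and the dorsal telencephalon is the embryonic tissue that forms the cerebral cortex. The comparison asked which transcripts differ at E14.5 when Dot1l is deleted. Total RNA was sequenced from 5 control and 5 Dot1l-cKO samples, labelled as biological replicates.

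Both groups were C57BL/6 embryos at E14.5 and both carried a conditional Dot1l allele. The controls were Dot1l-cKO f/+, so they had 1 conditional allele, and they carried no Cre. The Dot1l-cKO embryos were Dot1l-cKO f/f, with both Dot1l alleles conditional, and carried Cre recombinase. Because no control carried Cre, the presence of the Cre allele and the loss of Dot1l cannot be told apart in these groups. According to the methods of the study, controls were littermates.

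Planar cell polarity is the alignment of cells within the plane of a tissue. In the core mechanism, the membrane proteins of the Vangl family gather with Prickle proteins on one side of a cell, Frizzled receptors gather with Dishevelled on the opposite side, and Celsr cadherins bridge the neighbouring cells on both sides. Scrib is a scaffold of the cell cortex that binds Vangl2, and Ptk7 is a receptor-like protein without kinase activity that acts with them. In mice these genes are known for neural tube closure, and in the brain for the growth of axon tracts, neuronal migration and the placement of cilia.

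Promoter sequences of Prickle1 and Prickle2 are shown because these genes are close paralogs that the data place at different levels per exon length. The RefSeq promoter table of GRCm38.p6 held 10 promoters for 6 of the 9 genes, and the 250 bases before each start were examined. CpG dinucleotides, the letters CG, which read the same on both strands, are in capitals and all other bases in lower case. The windows printed lie on the minus strand, hold no annotated exon, and are written 5′ to 3′. The first is the promoter of the upstream start of Prickle1 (chr15:93595903-93596152), the next that of the upstream start of Prickle2 (chr6:92706185-92706434), and the last that of the Prickle2 start farthest downstream (chr6:92481393-92481642).
Prickle1: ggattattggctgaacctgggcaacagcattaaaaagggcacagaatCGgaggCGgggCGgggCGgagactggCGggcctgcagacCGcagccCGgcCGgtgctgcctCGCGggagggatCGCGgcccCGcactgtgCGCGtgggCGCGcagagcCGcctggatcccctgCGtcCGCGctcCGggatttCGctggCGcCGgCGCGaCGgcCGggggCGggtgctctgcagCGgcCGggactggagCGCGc
Prickle2 upstream: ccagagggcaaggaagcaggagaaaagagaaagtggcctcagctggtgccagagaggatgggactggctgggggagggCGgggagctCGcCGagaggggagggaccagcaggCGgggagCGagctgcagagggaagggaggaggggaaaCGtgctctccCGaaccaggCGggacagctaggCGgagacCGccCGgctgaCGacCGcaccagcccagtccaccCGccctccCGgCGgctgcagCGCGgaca
Prickle2 inner: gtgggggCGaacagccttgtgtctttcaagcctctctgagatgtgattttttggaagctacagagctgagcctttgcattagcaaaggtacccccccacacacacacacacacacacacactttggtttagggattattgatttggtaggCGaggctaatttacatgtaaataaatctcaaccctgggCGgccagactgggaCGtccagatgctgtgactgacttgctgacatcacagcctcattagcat

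The upstream Prickle1 window held 34 CpG, and 3.53% of the 32851 promoters in the table held at least that number. A second, inner Prickle1 start (chr15:93519521-93519770), not printed, had 16 CpG, a number reached by 25.4% of all promoters. The upstream Prickle2 window held 18 CpG, and 21.7% of all promoters held at least that number. At the printed inner Prickle2 start there were 4 CpG, below the median of 6 over all promoters, and the remaining Prickle2 starts had 5 and 4. The Vangl2 window also held 18 CpG, but all 250 of its bases lie in an annotated exon of another Vangl2 transcript. Of the remaining genes, Celsr2 had 32 CpG, Celsr3 17 and Ptk7 14 in the window before the start.

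Sequencing depth was similar across the samples, with total counts between 54202349 and 66556034. Each column name in the deposited normalised tables starts with a number of unexplained meaning. It was 57 for replicates 2 and 3 of both groups, and these 4 libraries had 0.0471% to 0.492% of their counts in mitochondrial rRNA, against 5.79% to 10.9% in the other 6. They are called the header-57 libraries here, and differences are also given within and outside them. Dot1l itself averaged 37.3 ± 4.04 CPM (counts scaled to a library total of 1e+06) in controls and 39.4 ± 11.7 in the Dot1l-cKO group (SD, n = 5), with an adjusted p of 0.864. A count over the whole gene also takes reads from outside a deleted stretch, so it does not check the labels.

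Tissue markers were present in all samples, and no listed marker was at 0 throughout. The summed level of 10 dorsal radial glia markers was 2283 to 2860 CPM in controls against 2941 to 3294 CPM in Dot1l-cKO. Of these, 3 were called higher and 1 lower, and 7 had an unadjusted p under 0.05. Microglia markers summed to 22.7 to 38.3 CPM in controls against 45.4 to 66.1 CPM in Dot1l-cKO, with 4 of 4 higher. Markers of interneurons and the ventral telencephalon summed to 64.0 to 317 CPM in controls against 6.36 to 87.6 CPM in Dot1l-cKO. These ranges overlapped, as control replicate 3 (64.0) lay below Dot1l-cKO replicates 1 (87.6) and 4 (86.5). Of 9 markers tested, 2 were lower and 8 had an unadjusted p under 0.05. Over all genes tested, 5.67% were called higher, 1.44% lower, and 20.6% had an unadjusted p under 0.05. The sums of the lists for intermediate progenitors, cortical neurons, cortical hem and choroid plexus, meninges, endothelium and blood also overlapped between the groups. Of their genes, edgeR called 0, with 2 at an unadjusted p under 0.05, both in the neuron list. The part of these differences in the values below was not tested, and in bulk tissue fewer cells of a type and less RNA per cell cannot be told apart.

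The 9 genes spanned a wide range of levels in the control telencephalon. On the RPKM scale, which is CPM divided by the exon length in kilobases, Celsr1 was highest at 40.5 ± 5.61 (SD, n = 5, as for all means here). Vangl2 followed at 27.6 ± 1.58 and Ptk7 at 23.7 ± 5.22 RPKM. Scrib at 17.1 ± 1.26, Celsr2 at 16.7 ± 2.16 and Celsr3 at 16.2 ± 1.91 RPKM formed a middle group. Prickle1 was at 5.43 ± 0.515 RPKM, Prickle2 at 2.82 ± 0.453 RPKM and Vangl1, the paralog of Vangl2, at 0.501 ± 0.138 RPKM. In CPM, Prickle1 and Prickle2 were close, at 23.6 and 24.3 in controls. Their RPKM difference thus came from the exon lengths of 4345 and 8631 bases. Control ranges overlapped between Vangl2 and Ptk7, between Scrib and Celsr2, and between Celsr2 and Celsr3, so these neighbours did not differ beyond their spread. Of the tested genes with an annotated length, 93.6% were below Celsr1, 89.8% below Vangl2 and 21.2% below Vangl1. The means in Dot1l-cKO followed the same order. With the longest transcript as the length, Ptk7 came before Vangl2, at 30.1 and 29.5 RPKM.

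**Figure D1:**
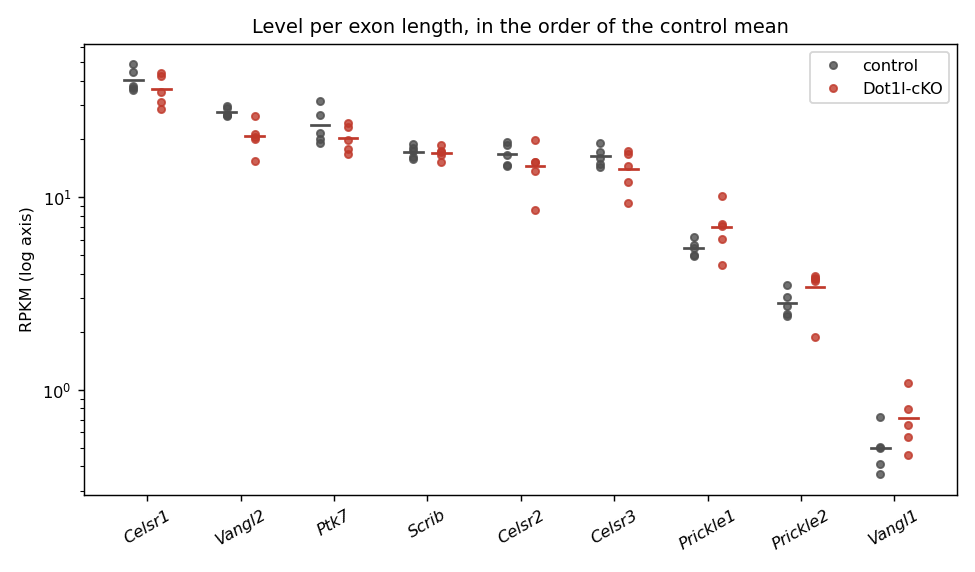
Level of each gene in RPKM on a log axis, with 1 point per sample, dark for control and red for Dot1l-cKO, and a bar at the mean of 5. Control means run from 40.5 for Celsr1 to 0.501 for Vangl1, and the groups overlap for all 9 genes.

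Across the genotypes, 0 of the 9 genes passed the test in either direction. The background was 5.67% of the 17039 genes tested called higher in Dot1l-cKO and 1.44% called lower, by the edgeR quasi-likelihood test at an adjusted p under 0.05. At an unadjusted p under 0.05 there was 1 of 9 genes (11.1%), Vangl2, against 3508 of 17039 genes tested (20.6%). DESeq2 and limma each called Vangl2, which the edgeR test did not. Of the 9 log2 fold changes (Dot1l-cKO over control), 6 were negative and 3 positive, with a median of -0.17, against a median of -0.0056 and 8717 negative of 17039 over all genes tested. The groups overlapped for every one of the 9 genes. The share of all genes tested whose groups overlapped is not given, so overlap or its absence is only a description, here and below. With replicate numbers as a block, again 0 of 9 were called, beside 6.51% of all genes higher and 2.91% lower.

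**Figure D2:**
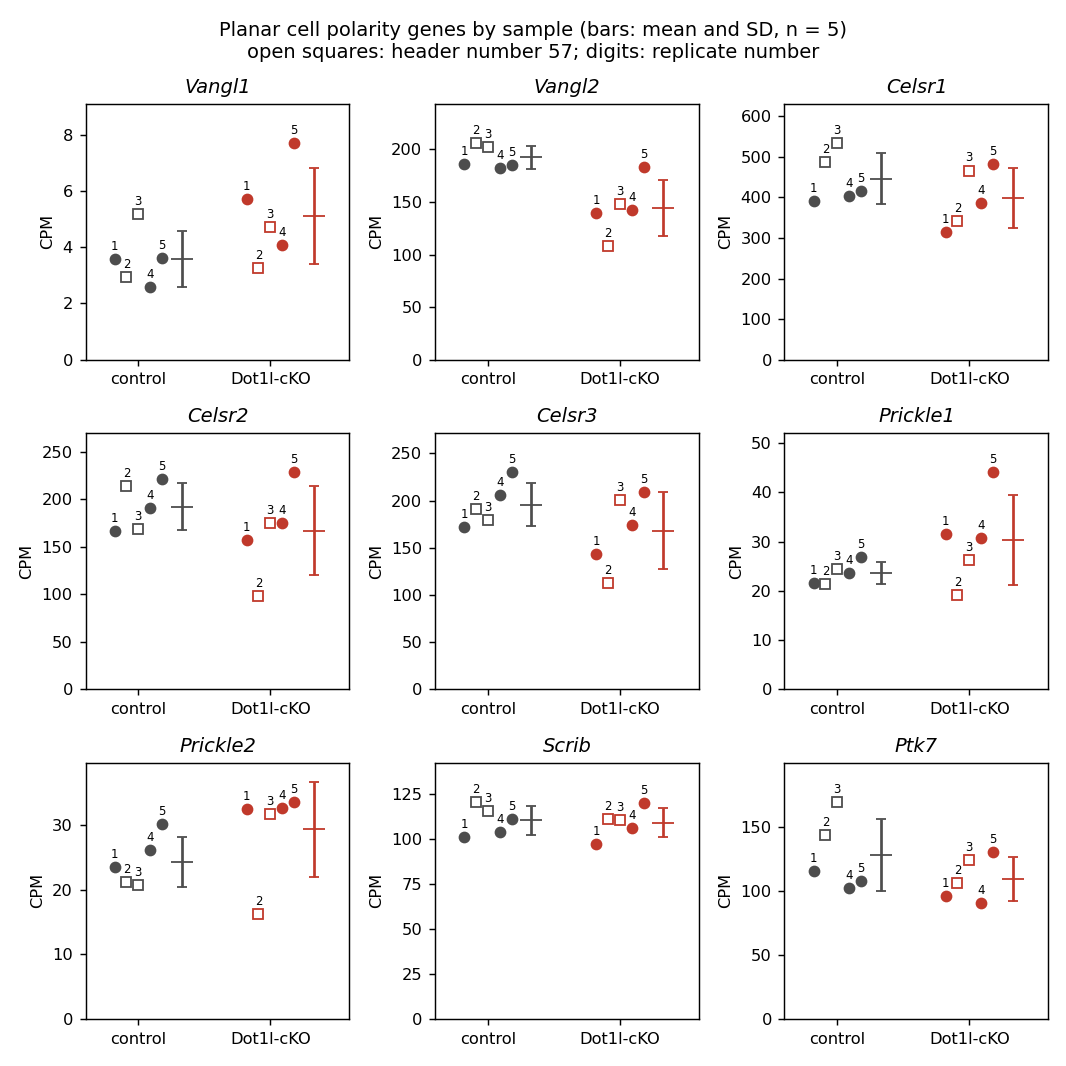
CPM of each gene in the 10 samples, with the replicate number beside each point, open squares for the header-57 libraries, and a bar with the mean and SD of 5 samples per genotype. Dot1l-cKO replicate 5 is the highest of its group in all 9 panels, and Dot1l-cKO replicate 2 is the lowest in 6 of them.

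Vangl2 (ENSMUSG00000026556), the membrane protein at the centre of the core complex, lies on chromosome 1 (chr1:172000960-172028444, GRCm38, minus strand). Its level in the control replicates, from 1 to 5, was 186.4, 206.4, 202.7, 182.6 and 184.9 CPM. In the Dot1l-cKO replicates it was 139.5, 107.8, 148.0, 142.6 and 183.3 CPM. All controls lay above 4 of the 5 Dot1l-cKO samples, while Dot1l-cKO replicate 5 was within the control range, just above the lowest control. The mean was 193 ± 11.0 CPM in controls against 144 ± 26.9 CPM in Dot1l-cKO, a fold of 0.749. The log2 fold change was -0.42 (SE 0.12, 95% interval -0.67 to -0.16), with an unadjusted p of 0.0044 and an adjusted p of 0.0571, so Vangl2 did not pass. It was lower in Dot1l-cKO in 5 of 5 same-numbered pairs.

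The call on Vangl2 depended on the fit and on single libraries. It passed with DESeq2 (adjusted p of 0.0099), with DESeq2 size factors in edgeR (0.0483), with the header-57 libraries as a block (0.0466) and with limma on the deposited normalised counts (0.0355), which makes 4 of 10 other settings. Leaving out Dot1l-cKO replicate 5, the highest of its group, gave an adjusted p of 0.0119. The 9 other single omissions gave adjusted p-values up to 0.126 and no call. The log2 fold change was -0.66 within the header-57 libraries (2 against 2) and -0.25 within the others (3 against 3).

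Vangl1 (ENSMUSG00000027860), its paralog on chromosome 3 (chr3:102153583-102204693, minus strand), was a weakly expressed gene with 167 to 479 reads per sample. Controls 1 to 5 had 3.58, 2.95, 5.18, 2.60 and 3.63 CPM. The Dot1l-cKO replicates had 5.72, 3.28, 4.71, 4.09 and 7.72 CPM. The highest control was above 3 of the Dot1l-cKO samples. For Vangl1 the log2 fold change was 0.51 (SE 0.25, 95% interval -0.04 to 1.05), with an adjusted p of 0.278. It was -0.01 within the header-57 libraries, 0.84 within the others and 0.30 without Dot1l-cKO replicate 5.

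The share of Vangl1 in the summed RPKM of both Vangl genes was small in every sample. It was 1.84%, 1.38%, 2.44%, 1.37% and 1.88% in controls 1 to 5. The Dot1l-cKO values, in the same order, were 3.85%, 2.88%, 3.01%, 2.72% and 3.95%. The lowest Dot1l-cKO share was above the highest control share, although the levels of both genes overlapped between the groups. Means were 1.78 ± 0.440% and 3.28 ± 0.572%, and no test was run on this share. The longest exact run of bases shared by transcripts of both genes was 23.

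**Figure D3:**
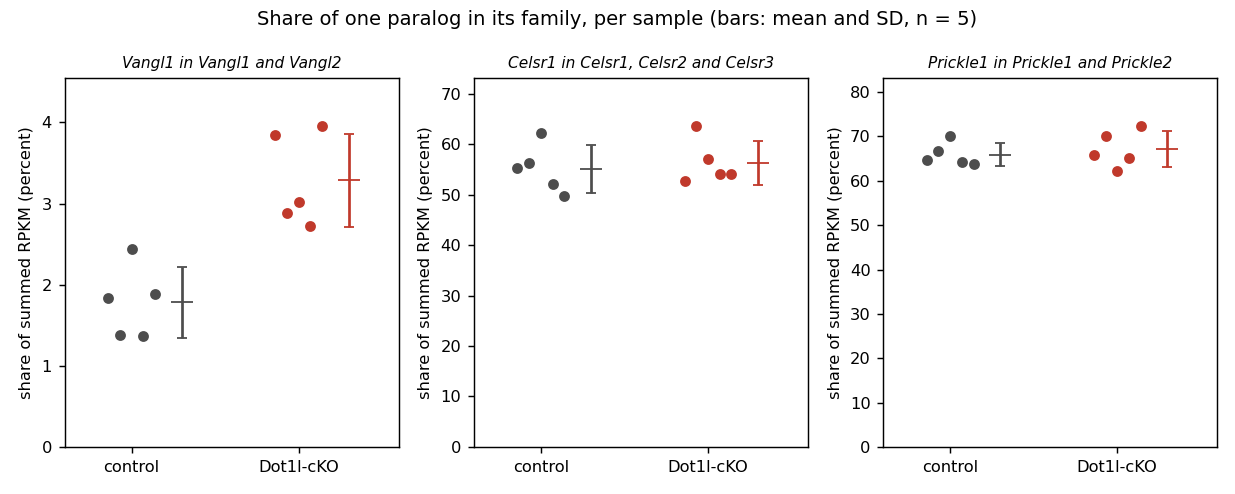
Percent of a family's summed RPKM taken by Vangl1, Celsr1 and Prickle1, with 1 point per sample and a bar with the mean and SD of 5. The Vangl1 share is 1.37% to 2.44% in control and 2.72% to 3.95% in Dot1l-cKO, and the shares of Celsr1 and Prickle1 overlap between the groups.

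The Celsr genes encode large cadherins that cross the membrane several times. Celsr1 (ENSMUSG00000016028, chr15:85898929-86033777, minus strand) was 391.9, 486.8, 534.4, 402.0 and 415.5 CPM in controls 1 to 5 and 313.7, 342.4, 466.0, 384.8 and 482.0 CPM in the Dot1l-cKO replicates in the same order. The lowest control lay above 3 Dot1l-cKO samples, and the groups overlapped. Celsr1 had a log2 fold change of -0.17 (SE 0.14, 95% interval -0.46 to 0.13) with an adjusted p of 0.546. It was -0.09 without control replicate 3 or without Dot1l-cKO replicate 1, and -0.25 without Dot1l-cKO replicate 5. Within the header-57 libraries it was -0.32, and within the others -0.04.

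Celsr2 (ENSMUSG00000068740, chr3:108390851-108415552, minus strand) and Celsr3 (ENSMUSG00000023473, chr9:108826320-108852969, plus strand) are known above all for their roles in neurons. Celsr2 ranged from 166.7 to 220.8 CPM in control and from 98.4 to 228.2 CPM in Dot1l-cKO, so the control range lay inside that of the Dot1l-cKO samples. Its log2 fold change was -0.20 (SE 0.18, 95% interval -0.60 to 0.20, adjusted p of 0.590). Celsr3 ranged from 171.9 to 229.9 CPM in control and from 112.5 to 209.5 CPM in Dot1l-cKO, with a log2 fold change of -0.22 (SE 0.16, 95% interval -0.57 to 0.13, adjusted p of 0.492). Dot1l-cKO replicate 2 was the lowest sample for both genes. Without it the log2 fold change was -0.06 for Celsr2 and -0.10 for Celsr3, closer to 0, and without Dot1l-cKO replicate 5 it was -0.35 for Celsr2. Within the header-57 libraries and within the others, Celsr2 had -0.47 and -0.05, and Celsr3 -0.22 and -0.21. Celsr1 took 55.1 ± 4.76% of the summed Celsr RPKM in controls and 56.3 ± 4.34% in Dot1l-cKO. Paralogs shared exact runs of at most 32 bases, and Celsr3 shared 65 exon bases with a microRNA gene that had 1 count in all samples together.

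**Figure D4:**
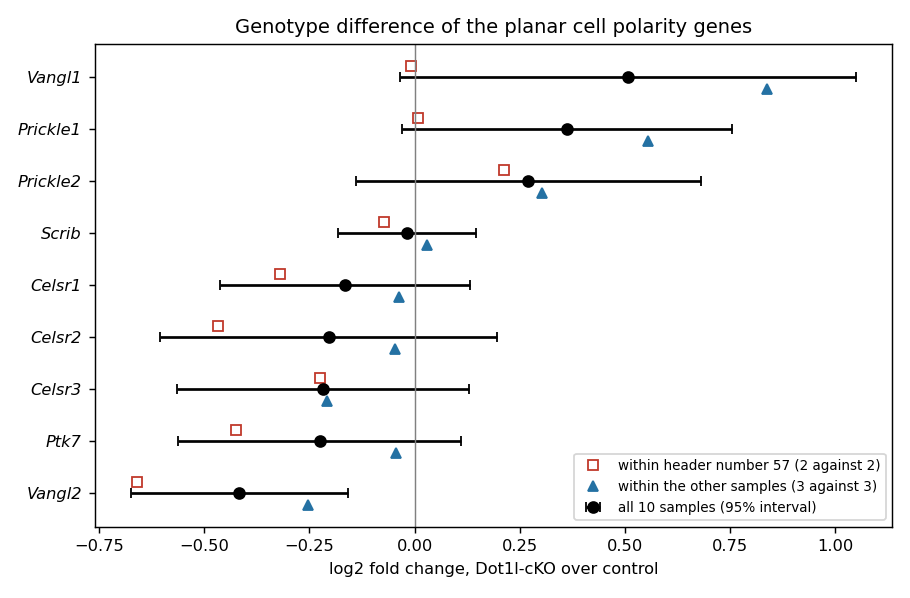
Log2 fold change (Dot1l-cKO over control) of the 9 genes from all 10 samples with its 95% interval (black), within the header-57 libraries (open red squares) and within the other libraries (blue triangles). The interval leaves out 0 for Vangl2 alone, before adjustment over all genes, and the estimates of Vangl1 and Scrib lie on opposite sides of 0 in the 2 sets of libraries.

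Prickle1 (ENSMUSG00000036158, chr15:93499114-93595891, minus strand) and Prickle2 (ENSMUSG00000030020, chr6:92370908-92706155, minus strand) encode the cytoplasmic LIM-domain partners of Vangl proteins. Prickle1 was 21.7, 21.3, 24.5, 23.7 and 26.8 CPM in controls 1 to 5 and 31.5, 19.2, 26.3, 30.7 and 44.1 CPM in the Dot1l-cKO replicates in the same order. Dot1l-cKO replicate 2 was below all controls and Dot1l-cKO replicates 1, 4 and 5 above them. Prickle1 had a log2 fold change of 0.36 (SE 0.18, 95% interval -0.03 to 0.76) with an adjusted p of 0.284. It was 0.01 within the header-57 libraries and 0.55 within the others. Omitting Dot1l-cKO replicate 5 gave 0.18, and omitting Dot1l-cKO replicate 2 gave 0.49 with an adjusted p of 0.0692.

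Prickle2 was 23.6, 21.2, 20.7, 26.1 and 30.2 CPM in controls 1 to 5 and 32.6, 16.2, 31.8, 32.7 and 33.6 CPM in the Dot1l-cKO replicates in the same order. Dot1l-cKO replicate 2 was below all controls, and the other 4 Dot1l-cKO samples were above all controls. Its log2 fold change was 0.27 (SE 0.19, 95% interval -0.14 to 0.68) with an adjusted p of 0.468. Without Dot1l-cKO replicate 2 it was 0.42 with an adjusted p of 0.0483, which passes. Prickle1 took 65.9 ± 2.60% of the RPKM of this pair in controls and 67.1 ± 4.06% in Dot1l-cKO, and the promoters printed above belong to these genes.

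Scrib (ENSMUSG00000022568, chr15:76047158-76069784, minus strand) had the narrowest interval of the 9 genes. It ranged from 101.1 to 120.7 CPM in control and from 97.5 to 120.0 CPM in Dot1l-cKO. Scrib had a log2 fold change of -0.02 (SE 0.07, 95% interval -0.18 to 0.15) with an adjusted p of 0.921. Ptk7 (ENSMUSG00000023972, chr17:46564471-46629504, minus strand) ranged from 102.4 to 169.2 CPM in control and from 90.2 to 129.97 CPM in Dot1l-cKO. Its log2 fold change was -0.23 (SE 0.15, 95% interval -0.56 to 0.11) with an adjusted p of 0.459. The control maximum of Ptk7 was replicate 3 and the next was replicate 2, which are both header-57 libraries, and the log2 fold change was -0.42 within these libraries, -0.05 within the others and -0.10 without control replicate 3.

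The genotype difference was also compared between the header-57 libraries and the others. The edgeR interaction term called 0 of the 9 genes, with 0 at an unadjusted p under 0.05 and adjusted p-values from 0.728 to 0.978. Among all genes tested it called 0, with 1071 of 17039 at an unadjusted p under 0.05.

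Dot1l-cKO replicate 5 was the highest of the 5 Dot1l-cKO samples for 9 of 9 genes, and for 24.5% of all genes tested. Dot1l-cKO replicate 2 was the lowest for 6 of 9 (Vangl1, Vangl2, Celsr2, Celsr3, Prickle1 and Prickle2), and for 28.8% of all genes tested. No control was highest or lowest for more than 4 of the 9 genes. Control replicate 5 was the highest control for 4 (both Prickle genes, Celsr2 and Celsr3), against 24.3% of all genes tested. Control replicate 1 was the lowest for 4 (Celsr1, Celsr2, Celsr3 and Scrib), against 15.1%.

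Other genes were ranked by the likeness of their pattern over the 10 samples to that of Vangl2, after the group means were removed. Among 12608 genes whose mean log2 CPM was 1 or more, the 5 most like Vangl2 were Zfp574 (Pearson's r of 0.98), Smtn (0.97), Pml (0.97), Rfx1 (0.97) and Khsrp (0.97). The median r over all genes compared was -0.05. Without Dot1l-cKO replicates 2 and 5, the samples farthest from the median of Vangl2, these 5 values were 0.76 to 0.93. For the other planar polarity genes r ran from 0.43 (Scrib) to 0.87 (Celsr2). Without the same 2 samples it ran from -0.65 (Prickle2) to 0.87 (Ptk7), so the likeness of Vangl1, Celsr2, Celsr3 and the Prickle genes to Vangl2 depended on those libraries. Both genes of each correlation were read in the same 10 libraries, each with its own depth and header number, and the values are descriptions.

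The wider planar polarity system was followed through 57 further genes, of which 56 were tested and Wnt11 was not. Of these, 1 rose in Dot1l-cKO, 2 fell and 53 did not pass, where 5.67% of all genes tested were called higher and 1.44% lower. The median log2 fold change was -0.15, with 39 negative and 17 positive values, beside 8717 negative of 17039 over all genes tested. At an unadjusted p under 0.05 there were 11 (19.6%), against 20.6% of all genes tested. With replicate numbers as a block, 1 was higher and 5 lower, with Ankrd6, Fzd3 and Lrrc1 added to the genes that fell, and over all genes 6.51% were higher and 2.91% lower.

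Among the ligands, Wnt7a, a secreted Wnt made by cortical progenitors, fell. It was 37.7, 43.3, 35.3, 40.0 and 36.1 CPM in controls 1 to 5 and 26.6, 26.6, 31.2, 28.9 and 21.3 CPM in the Dot1l-cKO replicates in the same order. The groups did not overlap, and the log2 fold change was -0.52 (SE 0.10) with an adjusted p of 0.0112. Omitting any single sample kept it past the threshold, in 10 of 10 fits. Within the header-57 libraries alone Wnt7a had -0.43 and did not pass (adjusted p of 0.310). Within the others it had -0.58 (adjusted p of 0.0354). Wnt5a, the ligand best known for planar polarity, had a log2 fold change of 0.61 (SE 0.22, adjusted p of 0.137), with ranges of 13.9 to 31.8 CPM in control and 21.0 to 37.8 CPM in Dot1l-cKO. Without control replicate 3, the highest control, Wnt5a passed, at 0.85 on the log2 scale (adjusted p of 0.0099). In the list of ligands and their glypican, 1 of 5 fell, beside 1.44% of all genes tested, and the median log2 fold change was -0.33. At an unadjusted p under 0.05 there were 3 of the 5, against 20.6% of all genes tested.

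Of the 6 receptors, 0 were called by edgeR, where 5.67% of all genes tested were called higher and 1.44% lower. At an unadjusted p under 0.05 there were 2 (33.3%), against 20.6% of all genes tested. Fzd3, a Frizzled receptor needed for axon tracts, was 207.4 to 258.7 CPM in control and 167.1 to 201.6 CPM in Dot1l-cKO, without overlap. Its log2 fold change was -0.29 (SE 0.08) with an adjusted p of 0.0592, while the replicate block gave -0.29 and an adjusted p of 0.0364, which passes. Ror2, a receptor of Wnt5a, had the most negative value of the list, -0.70 (SE 0.23, adjusted p of 0.109). It ranged from 13.6 to 28.5 CPM in control and from 8.40 to 15.3 CPM in Dot1l-cKO, with overlap. The log2 fold change of Ror2 was -1.08 within the header-57 libraries and -0.36 within the others. Fzd6 had the most positive value of the list, 0.22 (adjusted p of 0.561). DESeq2 called Fzd3 and Ror2 lower, among 663 of 19302 genes that it called lower.

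In the cytoplasmic list, 0 of 12 genes were called by edgeR. At an unadjusted p under 0.05 there was 1 (8.3%), against 20.6% of all genes tested. That gene was Ankrd6, the vertebrate relative of Diego, with a log2 fold change of -0.28 (SE 0.10) and an adjusted p of 0.130. With the replicate block its adjusted p was 0.0232, which passes, in a fit that called 2.91% of all genes lower. Dvl2, a Dishevelled protein, had -0.15 (adjusted p of 0.494), and Prickle3 had 0.35 (adjusted p of 0.403).

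Daam1, a formin that links Dishevelled to actin, was the gene that rose among 13 effectors, where 5.67% of all genes tested were called higher. It was 125.4, 121.8, 120.8, 122.4 and 133.3 CPM in controls 1 to 5 and 145.1, 191.1, 176.1, 153.3 and 143.6 CPM in the Dot1l-cKO replicates in the same order. All Dot1l-cKO samples were above all controls, the header-57 libraries most of all. The log2 fold change was 0.38 (SE 0.09) with an adjusted p of 0.0249. Among 10 single omissions, the call was lost in 4 (control replicates 1, 2 and 4, and Dot1l-cKO replicate 3), with adjusted p-values up to 0.0667. Daam1 had 0.62 within the header-57 libraries and 0.21 within the others, and passed in neither. Its relative Daam2 had 0.38 (SE 0.24, adjusted p of 0.419), and Rock1, a kinase downstream of RhoA, had -0.25 (adjusted p of 0.315).

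The Fat and Dachsous cadherins, a parallel polarity system, had 0 of 6 genes called by edgeR. In this list 1 gene (16.7%) had an unadjusted p under 0.05, against 20.6% of all genes tested. Fat1 had the most negative value, -0.34 (SE 0.16, adjusted p of 0.239), and Dchs2 the most positive, 0.27 (SE 0.31, adjusted p of 0.684). Of 14 partners of Scrib in apical and basal polarity, 12 had negative values, against 51.2% of all genes tested, and the median was -0.20. At an unadjusted p under 0.05 there were 2 of the 14 (14.3%), against 20.6% of all genes tested. Dlg3, a membrane scaffold of the Discs large family, fell. It was 96.8, 86.0, 85.8, 94.4 and 96.0 CPM in controls 1 to 5 and 76.8, 62.6, 78.9, 76.4 and 77.0 CPM in the Dot1l-cKO replicates in the same order, without overlap. The log2 fold change was -0.30 (SE 0.08) with an adjusted p of 0.0351. Omitting 1 sample at a time, it stayed past the threshold without control replicates 2 or 3 or Dot1l-cKO replicate 2, and missed it without any of the other 7, with adjusted p-values of 0.0507 to 0.0932. Dlg3 had -0.26 within the header-57 libraries, where it did not pass (adjusted p of 0.416), and -0.32 within the others (0.0397). Lrrc1, a relative of Scrib, had -0.49 (SE 0.17, adjusted p of 0.120, and 0.0041 with the replicate block), and Dlg2 had 0.16 (adjusted p of 0.731).

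**Figure D5:**
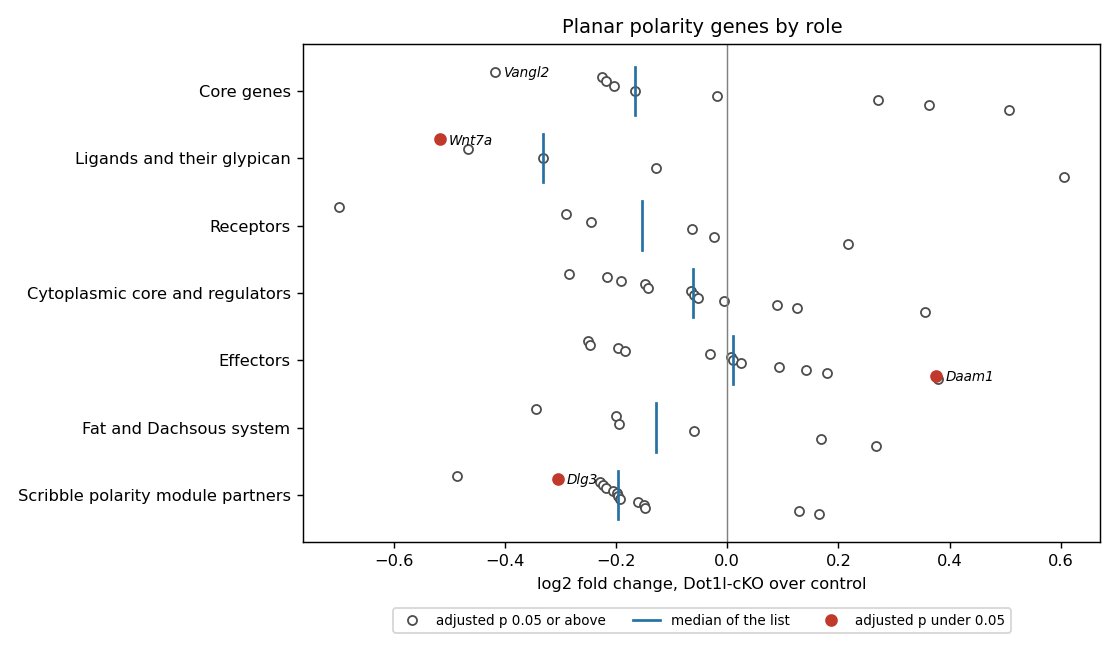
Log2 fold change (Dot1l-cKO over control) of the 9 core genes and of 56 further planar polarity genes by role, with filled red points for an adjusted p under 0.05, open points for the rest and a blue line at the median of each list. The called genes are Wnt7a at -0.52, Dlg3 at -0.30 and Daam1 at 0.38, and Vangl2 is at -0.42 without passing.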

How the data were processed

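RNA-seq of 10 samples was used, grouped and numbered by their titles. The deposited counts were made by the authors with Trim Galore 0.2.8, TopHat2 2.0.9 on mm10 and HTSeq 0.6.0 in strand-specific mode on Ensembl genes, from rRNA-depleted stranded libraries. The second kind of table holds signal, these counts scaled by size factors that the authors obtained with DESeq2 1.6.1, and was used in 1 alternative only. Every column was used. Symbols, coordinates and exon lengths came from GENCODE on GRCm38, with 42548 identifiers matched, and those without a symbol held 0.268% of the counts. The authors' annotation release was another one, so lengths may differ.

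Counts were tested with edgeR 4.0.16 in R 4.3.3 (filterByExpr, TMM, quasi-likelihood test, Benjamini-Hochberg adjustment over 17039 genes, called at an adjusted p under 0.05) with no covariate. CPM and RPKM used TMM-scaled library sizes. The SE is the log2 fold change divided by the square root of F and is approximate, and intervals are not adjusted. The script was tested on simulated data. Counts carry no molecular identifiers. The labels do not say whether each replicate was 1 embryo. Replicates of a group differed by a chi-square of at least 30.8 per degree of freedom in all 20 pairs, so each was counted once.

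Replicate numbers were used as a block in 1 alternative fit. The correlation of deviations from the group means was over 0.1 for 5 of 5 same-numbered pairs (0.131 to 0.597, mean 0.290, against a mean of -0.0717 for other numbers). However, only 5 of the 10 samples correlated best with their own number. Control replicate 3, for example, had 0.446 with Dot1l-cKO replicate 5 and 0.145 with Dot1l-cKO replicate 3. The pairing is thus uncertain, and the main fit does not use it. The header number runs along with the replicate number. The fit with the block is given where it changes a call.

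The members and lists were chosen with earlier results of these data known. Named genes are all 9 members, Dot1l, the called genes and both extremes of each list, Ankrd6, Fzd3, Dvl2 and Wnt5a, and the 5 genes most like Vangl2. Another gene of the rule is not reported here. Alternatives were DESeq2 1.42.0, DESeq2 size factors in edgeR, no filter, a minimum of 10 counts in each sample, the replicate block, the header-57 libraries as a block, each set of libraries alone, removal of mitochondrial genes, limma 3.58.1 on log2(normalised count + 1), and each sample left out in turn.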

Additional observations from a re-analysis of the deposited data

Results flagged for a closer look

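In 54 groups of 5 samples, the gap of the lowest or highest sample to its nearest neighbour was divided by the range of the group on the log2 CPM scale. Of these, 4 groups exceeded Dixon's 95% critical value, where chance gives about 1 in 20 independent groups. The groups come from the same libraries and are not independent, so that rate does not apply directly. In all 4 the sample was Dot1l-cKO replicate 2, and it was the lowest, as it was within Dot1l-cKO for 28.8% of all genes tested. For Prickle2 the ratio was 0.921, with 16.2 CPM against 31.8 CPM in the nearest sample. For Dot1l it was 0.717, with 20.1 against 39.6 CPM. For Dchs2, a Dachsous cadherin, it was 0.887, with 1.23 against 2.87 CPM. For Dlg3 it was 0.864, with 62.6 against 76.4 CPM.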

How the results depend on the processing

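Of the planar cell polarity genes, 0 were called higher and 0 lower in the reported fit. The count of lower genes became 1 (Vangl2) with DESeq2, DESeq2 size factors, the header-57 block and limma, and was 0 to 1 when 1 sample was left out. The count of higher genes was 0 to 1 when 1 sample was left out, the 1 being Prickle2 without Dot1l-cKO replicate 2. The replicate block left both counts at 0.

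Of the 56 other planar polarity genes, 1 was higher and 2 lower. The lower count became 7 with DESeq2 (of 57 tested), 5 with the replicate block, 6 with the header-57 block and 0 within the header-57 libraries. It was 1 to 3 when 1 sample was left out. Over all genes the lower count was 246 in the reported fit and 663 of 19302 with DESeq2. The replicate block gave 495 over all genes and the header-57 block 514. The higher count became 0 within the header-57 libraries and 0 within the others, and was 0 to 2 when 1 sample was left out, with Wnt5a added to Daam1 without control replicate 3.

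Over all genes, 966 were higher and 246 lower. Within the header-57 libraries 1 was higher and 0 lower, and within the others 590 and 155, fits with fewer samples. The lower count was 663 with DESeq2, 495 with the replicate block (paired by number) and 514 with the header-57 block. Leaving out 1 sample gave 624 to 1076 higher and 126 to 343 lower. The split of calls was 1348 higher to 663 lower with DESeq2, 866 to 315 with its size factors, 1109 to 495 with the replicate block and 1276 to 514 with the header-57 block.

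The sign of the log2 fold change turned for Vangl1 within the header-57 libraries (-0.0078), for Scrib within the others (0.030) and among the fits without 1 sample (-0.063 to 0.019), and for Dot1l within the header-57 libraries (-0.37), with limma (-0.0058) and among the fits without 1 sample (-0.046 to 0.25). The cause was not tested. With 5 samples a group, the 95% interval was as narrow as -0.18 to 0.15 for Scrib and as wide as -0.04 to 1.05 for Vangl1, which had 167 to 479 reads per sample.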
